A study of Mus musculus with 4 samples.

Results

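The genes that carry the interleukin-4 and interleukin-13 signal into a macrophage were followed in macrophages sorted from mouse prostate tumours that did or did not overexpress BMP4. The 10 genes were taken by name: the receptor chains Il4ra, Il13ra1 and Il2rg, the Janus kinases Jak1, Jak2, Jak3 and Tyk2, the transcription factor Stat6, and the feedback inhibitors Socs1 and Cish. All 10 were found among the 39179 gene identifiers of the files, and all 10 passed the filter on low counts, which kept 14075 genes. MycCaP-BMP4 tumours grew from MycCaP cells made to overexpress BMP4, a secreted bone morphogenetic protein, and MycCaP tumours grew from the same line without it. MycCaP is a mouse prostate cancer line driven by a MYC transgene. The tumours were grown under the skin of FVB mice, and cells positive for CD45, CD11b and F4/80 and negative for GR1 were sorted from each, with 2 RNA libraries per group. The sample titles name F4/80 in the MycCaP-BMP4 group only. Separate mice for the 2 libraries of a group are not stated in the labels, and neither is whether MycCaP-BMP4 is 1 clone. The p-values therefore reflect only how far these libraries differ, which may be technical.

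Interleukin-4 binds the IL-4 receptor alpha chain, which then pairs either with the common gamma chain (the type I receptor, typical of blood-derived cells) or with the IL-13 receptor alpha 1 chain (the type II receptor, which also binds interleukin-13). JAK1 sits on the alpha chain, JAK3 on the common gamma chain, and TYK2 or JAK2 on the IL-13 receptor chain, and together they phosphorylate STAT6, which turns on the genes of alternative macrophage activation. SOCS1 and CIS, the product of Cish, belong to a family of proteins that are induced by cytokine signalling and dampen it.

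The files held 23058263 to 24967143 gene counts per library, so a floor of 3 counts per library came to 0.120 to 0.130 CPM (counts-per-million of gene counts), and it covers counting error only. The members had 84 to 11465 counts per library. Values of replicates 1 and 2 of a group are given in that order. Bmp4 itself had 511 and 182 CPM in MycCaP-BMP4 libraries, against 0.175 and 0.0422 CPM in MycCaP libraries. All 15 pan-macrophage markers were detected in all 4 libraries. The MycCaP-BMP4 libraries held less of them: their median stood at 19.6% of the MycCaP mean in replicate 1 and at 73.9% in replicate 2. In bulk RNA, fewer macrophages and less RNA per macrophage cannot be told apart. The mitochondrial share of gene counts was 3.28% and 2.85% in MycCaP-BMP4 libraries and 0.671% and 1.63% in MycCaP libraries.

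None of the 10 genes passed the test between MycCaP-BMP4 and MycCaP macrophages, and no gene of the whole table did. With edgeR's quasi-likelihood test and Benjamini-Hochberg adjustment over 14075 genes, the adjusted p of the members ran from 0.198 for Il13ra1 to 0.865 for Jak2, and the background was 0.0% of genes called higher and 0.0% called lower. Even the overexpressed gene Bmp4, at a log2 fold change of 11.6, had an edgeR adjusted p of 0.0729. A gene that did not pass is therefore not shown to be unchanged. At an unadjusted p under 0.05, the test took 951 genes as lower (6.76%) and 1729 as higher (12.3%), and limma-voom likewise called 0 genes at the adjusted threshold. Il13ra1 was the 1 member past that unadjusted threshold. DESeq2 called 424 genes lower (3.01%) and 961 higher (6.83%), and among the members it called Il13ra1 lower and no other. The 2 groups did not overlap for 7 members: for 6, each MycCaP-BMP4 library was below each MycCaP library, as were 29.7% of all genes, and for 1, Cish, it was above, as were 28.9%. These counts use TMM-scaled levels. Without TMM factors the groups overlapped for Jak1 and Stat6, which are among the 6. The log2 fold change was below 0 for 9 of the 10, beside 51.7% of all genes. The median log2 fold change of the members, MycCaP-BMP4 over MycCaP, was -0.51, beside -0.03 for all genes tested. Replicate 1 lay below replicate 2 in the MycCaP-BMP4 group for 9 of the 10 members, while 49.0% of all genes did so.

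**Figure D1:**
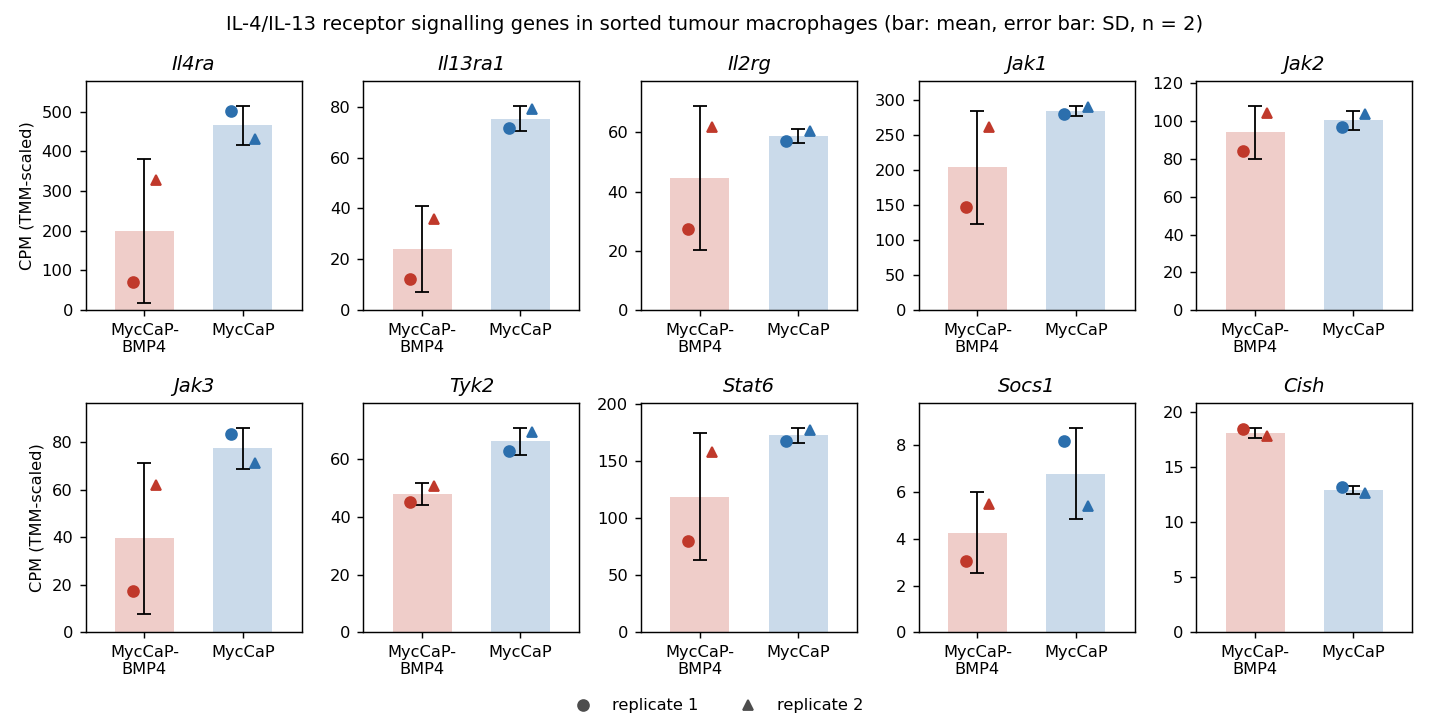
Normalised level of each of the 10 genes, in CPM scaled with TMM factors, in MycCaP-BMP4 (red, left) and MycCaP (blue, right) libraries; bars are means, error bars SDs of 2 libraries, circles replicate 1 and triangles replicate 2. The MycCaP-BMP4 replicates stand far apart for Il4ra (71.1 and 329 CPM) and close together for Tyk2 and Cish, and the MycCaP replicates of Il4ra (501 and 431 CPM) stand closer.

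Among the receptor chains, the IL-13 receptor chain was low in both MycCaP-BMP4 libraries. Il13ra1 (ENSMUSG00000017057; GRCm38 chromosome X, 36112110 to 36171259) had 12.2 and 36.0 CPM in MycCaP-BMP4 libraries, against 71.8 and 79.0 CPM in MycCaP libraries. Both MycCaP-BMP4 libraries lay below both MycCaP libraries, at 16.2% and 47.8% of the MycCaP mean. The log2 fold change was -1.65 ± 0.52 (SE), with a 95% interval from -2.93 to -0.36 and an edgeR adjusted p of 0.198. DESeq2 gave -1.64 with an adjusted p of 0.0272. With MycCaP-BMP4 replicate 1 left out, edgeR gave -1.07 with an adjusted p of 0.0160, and 2.63% of genes were called lower in that fit. With replicate 2 left out instead, it gave -2.60 (adjusted p = 0.000117), where 20.2% of genes were called lower. In these fits, here and below, the 1 remaining MycCaP-BMP4 library was assumed to vary like the MycCaP pair, so they do not show that a difference repeats between MycCaP-BMP4 libraries.

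Il4ra, the alpha chain shared by both receptor forms and the binding chain for interleukin-4 (ENSMUSG00000030748; chromosome 7, 125552120 to 125579474), had 71.1 and 329 CPM in MycCaP-BMP4 libraries and 501 and 431 CPM in MycCaP libraries. It averaged 199.9 ± 182 CPM in MycCaP-BMP4 libraries and 466 ± 49.7 CPM in MycCaP libraries (SD, n = 2 each), so the groups did not overlap but the difference was of the size of the spread in the MycCaP-BMP4 group. The 2 MycCaP-BMP4 libraries stood at 15.3% and 70.5% of the MycCaP mean. The log2 fold change of -1.22 ± 0.71 had an interval from -2.97 to 0.53 (edgeR adjusted p = 0.391). Without MycCaP-BMP4 replicate 1 it was -0.51, and without replicate 2 it was -2.68. Il2rg, the common gamma chain used by several interleukin receptors of lymphocytes (ENSMUSG00000031304; chromosome X, 101264378 to 101268255), had 27.4 and 61.9 CPM in MycCaP-BMP4 libraries and 57.0 and 60.5 CPM in MycCaP libraries. Here MycCaP-BMP4 replicate 1 was low and replicate 2 was above both MycCaP libraries, so the groups overlapped. The log2 fold change of Il2rg was -0.40 ± 0.41, with an interval from -1.42 to 0.63. It was 0.0727 without MycCaP-BMP4 replicate 1 and -1.07 without replicate 2.

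Ratios between chains within a library do not depend on how libraries are scaled. Per kilobase of merged exons, Il13ra1 stood at 0.286 and 0.374 of Il2rg in MycCaP-BMP4 libraries, against 0.810 and 0.839 in MycCaP libraries. This ratio of the type II to the type I partner chain was lower in both MycCaP-BMP4 libraries, by 1.33 on the log2 scale on average, and differed little between replicates of a group. Il4ra stood at 1.03 and 2.11 times Il2rg in MycCaP-BMP4 libraries and at 3.50 and 2.83 times in MycCaP libraries, so the groups were again apart. Jak3 over Il2rg was lower as well, at 0.279 and 0.446 in MycCaP-BMP4 libraries against 0.653 and 0.524 in MycCaP libraries. A lower ratio to Il2rg was thus not particular to the type II chain. The ratio of Il4ra to Il13ra1 was 3.61 and 5.65 in MycCaP-BMP4 libraries and 4.32 and 3.37 in MycCaP libraries, which overlap. With 2 libraries against 2, an exact permutation test cannot go below p = 0.333, so these ratios are given as values. Of the 11 ratios computed, most had the groups apart, in one direction or the other. Of the 2387 exonic bases of Il2rg, 728 are shared with the same-strand gene Gm20489, which was listed with 2 counts over the 4 libraries, and the way shared reads were counted is not given in the sources used here.

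**Figure D2:**
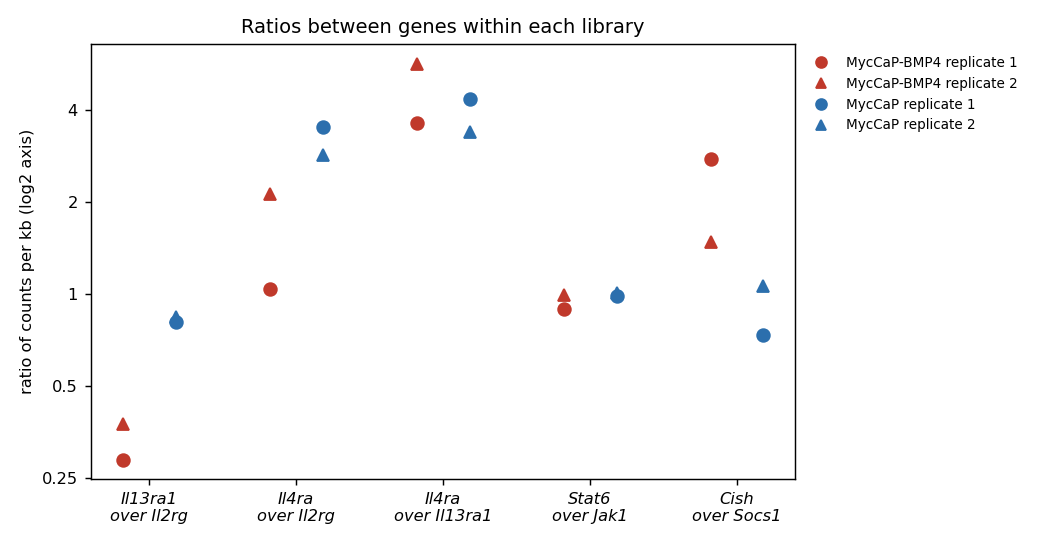
Ratio of counts per kilobase between pairs of the genes within each library, on a log2 axis, with MycCaP-BMP4 libraries in red to the left of MycCaP libraries in blue. Il13ra1 over Il2rg lies at 0.286 and 0.374 in MycCaP-BMP4 libraries and at 0.810 and 0.839 in MycCaP libraries, whereas Stat6 over Jak1 lies between 0.890 and 1.00 in all 4.

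The 4 Janus kinases were unequal in how far the groups stood apart. Jak3, the kinase of the common gamma chain (ENSMUSG00000031805; chromosome 8, 71676296 to 71690575), had 17.2 and 61.9 CPM in MycCaP-BMP4 libraries and 83.4 and 71.1 CPM in MycCaP libraries. Both MycCaP-BMP4 libraries were below both MycCaP libraries, replicate 1 by far the more, at 22.2% of the MycCaP mean against 80.1% for replicate 2. Its log2 fold change was -0.97 ± 0.59 (interval -2.42 to 0.48, edgeR adjusted p = 0.411). It was -0.32 without MycCaP-BMP4 replicate 1 and -2.14 without replicate 2. Jak1, the kinase of the alpha chain and of interferon and IL-6 family receptors (ENSMUSG00000028530; chromosome 4, 101152367 to 101265282), had 147 and 261 CPM in MycCaP-BMP4 libraries and 280.2 and 290.3 CPM in MycCaP libraries. With TMM scaling, its MycCaP-BMP4 replicate 2 came close to the MycCaP libraries without reaching them. Without TMM factors that library lay between them, at 35.7 CPM per kilobase against 35.5 and 39.0. The fold change was -0.48 ± 0.38 in log2 (interval -1.42 to 0.45). Without MycCaP-BMP4 replicate 1 it was -0.13, and without replicate 2 it was -0.93.

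Tyk2, a kinase of the IL-13 receptor chain and of the type I interferon receptor (ENSMUSG00000032175; chromosome 9, 21104068 to 21131243), had 45.3 and 50.7 CPM in MycCaP-BMP4 libraries and 62.8 and 69.4 CPM in MycCaP libraries. Both groups were tight and did not overlap, at 48.0 ± 3.85 CPM in MycCaP-BMP4 libraries and 66.1 ± 4.68 CPM in MycCaP libraries (SD, n = 2 each). The log2 fold change of Tyk2 was -0.46 ± 0.24 (interval -1.05 to 0.13, edgeR adjusted p = 0.345). Jak2, which also serves the receptors of granulocyte-macrophage colony-stimulating factor and interferon-gamma (ENSMUSG00000024789; chromosome 19, 29251828 to 29313080), had 84.3 and 104 CPM in MycCaP-BMP4 libraries and 96.9 and 104 CPM in MycCaP libraries. The groups overlapped, and the interval of the log2 fold change, -0.73 to 0.55 around -0.09, was narrower than those of the other kinases except Tyk2. Jak2 changed sign with the library left out, at 0.0510 without MycCaP-BMP4 replicate 1 and -0.22 without replicate 2.

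Stat6, the transcription factor that both receptor forms activate (ENSMUSG00000002147; chromosome 10, 127642986 to 127660957), had 79.6 and 158 CPM in MycCaP-BMP4 libraries and 168 and 177 CPM in MycCaP libraries. With TMM scaling, replicate 1 of the MycCaP-BMP4 group was at 46.2% of the MycCaP mean and replicate 2 at 91.6%, just below both MycCaP libraries. Without TMM factors replicate 2 lay between them, at 35.4 CPM per kilobase against 34.9 and 39.1. The log2 fold change was -0.54 ± 0.39, with an interval from -1.50 to 0.43 and an edgeR adjusted p of 0.485. Without MycCaP-BMP4 replicate 1 it was -0.13, and without replicate 2 it was -1.09. Stat6 and Jak1 had the most alike profiles of any 2 members over the 4 libraries, with a distance of 0.135 between their centred log2 levels. Their ratio per kilobase was 0.890 and 0.993 in MycCaP-BMP4 libraries and 0.982 and 1.00 in MycCaP libraries.

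The feedback inhibitors differed from each other. Cish (ENSMUSG00000032578; chromosome 9, 107296026 to 107302784), which is induced by cytokine receptors that act through STAT5, was the only member that lay higher in both MycCaP-BMP4 libraries, at 18.5 and 17.8 CPM, against 13.2 and 12.7 CPM in MycCaP libraries. These came from 510 and 406 counts in MycCaP-BMP4 libraries and 301 and 300 counts in MycCaP libraries. The difference was larger than the spread within either group (18.1 ± 0.446 CPM in MycCaP-BMP4 libraries and 12.9 ± 0.355 CPM in MycCaP libraries, SD, n = 2 each), but the log2 fold change of 0.49 ± 0.28 did not pass over all genes (interval -0.21 to 1.2, edgeR adjusted p = 0.392). Socs1, a strong inhibitor of Janus kinases that interferon-gamma also induces (ENSMUSG00000038037; chromosome 16, 10782240 to 10785536), had 3.04 and 5.49 CPM in MycCaP-BMP4 libraries and 8.17 and 5.40 CPM in MycCaP libraries. Socs1 was the least counted member, with 84 and 125 counts in MycCaP-BMP4 libraries and 187 and 128 counts in MycCaP libraries, and the groups overlapped (log2 fold change -0.67 ± 0.51, interval -1.93 to 0.58). Its fold change was -0.31 without MycCaP-BMP4 replicate 1 and -1.13 without replicate 2. Per kilobase, Cish stood at 2.75 and 1.47 times Socs1 in MycCaP-BMP4 libraries and at 0.729 and 1.06 times in MycCaP libraries.

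The promoters of these 2 inhibitors are printed because the genes are known to answer to different transcription factors. Each window runs from 250 bases before to 50 bases after the RefSeq start on GRCm38.p6 and is read 5′ to 3′ on the gene's strand. Capitals mark matches to the palindromes TTCNNNGAA and TTCNNNNGAA, the core letters that STAT proteins bind, and to GAAANNGAAA on either strand, the core of interferon response elements; the last was added after the sequences had been seen. Cish lies on the plus strand at chr9:107296409-107296708 and Socs1 on the minus strand at chr16:10785487-10785786.
Cish: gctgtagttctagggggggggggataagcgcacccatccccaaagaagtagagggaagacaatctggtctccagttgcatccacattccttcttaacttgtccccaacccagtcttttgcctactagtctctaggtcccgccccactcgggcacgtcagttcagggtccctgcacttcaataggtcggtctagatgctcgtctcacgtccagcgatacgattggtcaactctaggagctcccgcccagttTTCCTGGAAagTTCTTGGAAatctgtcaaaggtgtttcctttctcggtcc
Socs1: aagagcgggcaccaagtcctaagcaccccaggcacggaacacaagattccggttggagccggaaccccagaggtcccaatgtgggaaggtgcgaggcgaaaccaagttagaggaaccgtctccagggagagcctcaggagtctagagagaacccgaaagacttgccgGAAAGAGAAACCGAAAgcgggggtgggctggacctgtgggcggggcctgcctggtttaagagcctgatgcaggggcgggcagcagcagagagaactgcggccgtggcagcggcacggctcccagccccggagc

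The Cish window held 2 matches to TTCNNNGAA, TTCCTGGAA from base 1 and TTCTTGGAA from base 12 of the RefSeq transcript, and none to TTCNNNNGAA. GENCODE places the start of Cish further upstream, at 107296026, so the whole window lies inside the GENCODE gene. Of 32851 promoter windows, 8.30% held at least 1 TTCNNNGAA, 0.457% held at least 2, and 6.95% held at least 1 TTCNNNNGAA. The Socs1 window held 2 overlapping matches to GAAANNGAAA, starting 83 and 77 bases before the transcript, a motif found in 3.44% of windows. The windows of the other 8 members held none of these 3 motifs. These are matches of letters only, and binding was not measured.

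Compared per kilobase of exon, so that genes of different length can be set side by side, the receptor alpha chain was the highest of the 10 members in 3 of 4 libraries. The lengths merge all annotated exons, for Cish 6419 bases of a locus from 107296026 to 107302784. They can exceed the length of the expressed transcript, so the order of genes is approximate. Il4ra had 13.5 and 54.1 CPM per kilobase, here without TMM factors, in MycCaP-BMP4 libraries and 76.5 and 69.8 in MycCaP libraries. In MycCaP libraries it was followed by Stat6 (34.9 and 39.1) and Jak1 (35.5 and 39.0), which did not differ beyond their spread. Below these came Il2rg (21.9 and 24.7), then Il13ra1 (17.7 and 20.7) and Jak2 (17.7 and 20.1), which overlapped, Jak3 (14.3 and 12.9), Tyk2 (8.38 and 9.83), and Socs1 (2.58 and 1.81) and Cish (1.88 and 1.92), which overlapped as well. In MycCaP-BMP4 libraries Jak1 (23.1 and 35.7) and Stat6 (20.6 and 35.4) stayed near the top, while the range of Il4ra spanned theirs. Il13ra1, at 3.73 and 9.58 in MycCaP-BMP4 libraries, held rank 7 in each of them and rank 5 in each MycCaP library.

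The members were then set beside the macrophage markers. Relative to the median of the 15 pan-macrophage markers in the same MycCaP-BMP4 library, Il4ra lay at -0.35 and -0.06 and Il13ra1 at -0.23 and -0.62 on the log2 scale, in replicates 1 and 2. These were the 2 members below the marker median in both libraries, where 2.61% of all genes were. Jak3 lay next to the markers, at 0.22 and 0.12. The other 7 lay further above them in replicate 1, from 1.24 for Stat6 to 2.85 for Cish, and at 0.06 to 0.89 in replicate 2. The markers themselves ran from -0.46 to 0.65 around their median in replicate 1 and from -0.93 to 0.68 in replicate 2, so in replicate 2 Cish was the only member outside their range. In all, 8 of 10 members were above the marker median in both MycCaP-BMP4 libraries, near the 81.0% of all genes that were.

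**Figure D3:**
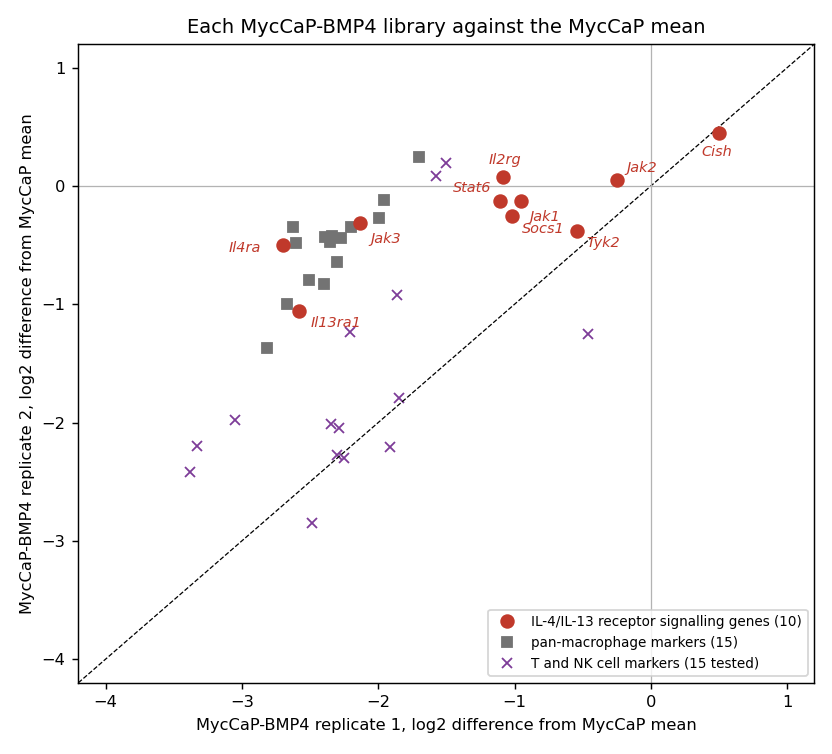
Log2 difference of each gene from the MycCaP mean in MycCaP-BMP4 replicate 1 (horizontal) and replicate 2 (vertical), for the 10 genes (red circles), 15 pan-macrophage markers (grey squares) and 15 T and NK cell markers (purple crosses); the dashed line marks equal differences. Il4ra, Il13ra1 and Jak3 lie among the macrophage markers, whose medians are -2.35 and -0.44, while Tyk2, Jak2 and Cish lie near the dashed line.

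When the macrophage markers set the scaling of the whole fit, the median of all genes moved to 1.64 and that of the members to 0.88. The fold changes of Il2rg, Jak1, Jak2, Jak3, Tyk2, Stat6 and Socs1 then turned positive (0.15 to 1.5), so that 8 of 10 members were above 0, as were 92.2% of all genes. Those of Il4ra (-0.21 ± 0.97) and Il13ra1 (-0.45 ± 1.08) remained negative. Cish went to 2.19 ± 1.15, with an edgeR adjusted p of 0.195. No member passed under this scaling, where 7.81% of all genes were called higher and 0.163% lower. Scaled by library size alone, Jak2 was also above 0, at 0.0667.

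**Figure D4:**
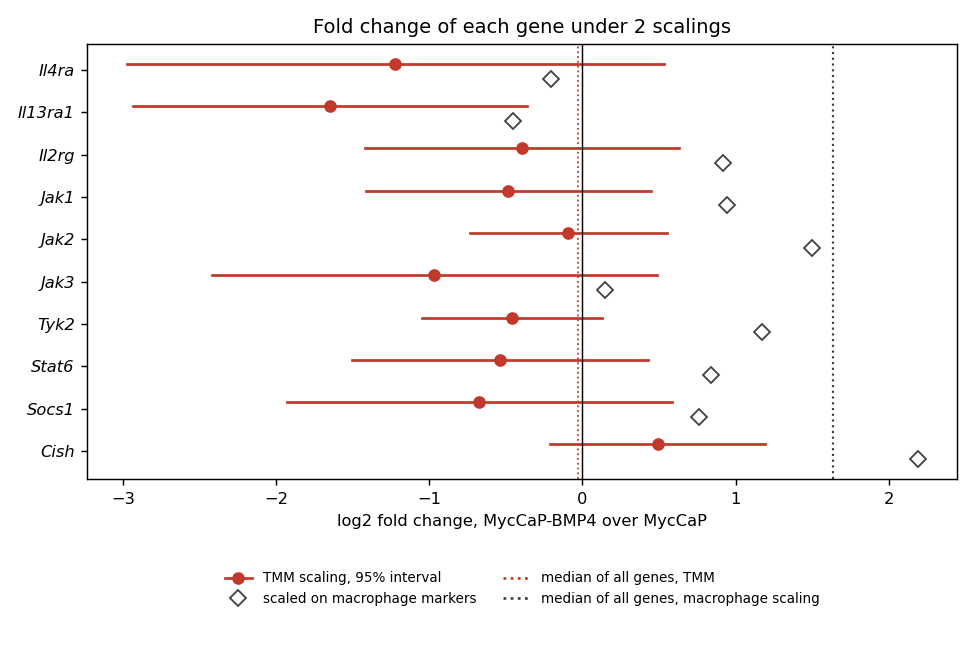
Log2 fold change, MycCaP-BMP4 over MycCaP, of each of the 10 genes with TMM scaling (red, with 95% interval) and scaled on the macrophage markers (open diamonds); dotted lines mark the median of all genes tested under each scaling, -0.03 and 1.64. Il13ra1 has the only interval that excludes 0, and Cish the only positive value under TMM scaling.

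Markers of other cells moved with the groups as well, and their part in these values was not tested. The counts of markers apart stand beside 29.7% of all genes apart with MycCaP-BMP4 lower and 28.9% with it higher. T and NK cell markers, whose cells use the common gamma chain and JAK3, summed to 20.6 and 53.3 CPM in MycCaP-BMP4 libraries and to 115 and 111 CPM in MycCaP libraries, and for 13 of 15 the groups were apart with MycCaP-BMP4 lower. B and plasma cell markers summed to 9.26 and 15.01 CPM in MycCaP-BMP4 libraries and 27.3 and 30.9 CPM in MycCaP libraries, and 3 of 4 tested were apart with MycCaP-BMP4 lower. Dendritic cell markers summed to 13.6 and 37.0 CPM in MycCaP-BMP4 libraries and 54.5 and 61.6 CPM in MycCaP libraries, with 6 of 7 apart and lower. Tumour epithelial markers ran the other way, at 786 and 308 CPM in MycCaP-BMP4 libraries and 107 and 141 CPM in MycCaP libraries, with 5 of 6 tested apart and higher, and with Krt5 at 0 counts in all 4. Cartilage and bone cell markers summed to 142 and 77.8 CPM in MycCaP-BMP4 libraries and 19.5 and 28.5 CPM in MycCaP libraries, with 4 of 5 tested apart and higher. Mast cell and basophil markers, of cells that make interleukin-4, summed to 21.4 and 40.0 CPM in MycCaP-BMP4 libraries and 8.48 and 19.0 CPM in MycCaP libraries, and of 5 tested 4 were apart with MycCaP-BMP4 higher and 1, Kit, with it lower. Of the eosinophil markers, which summed to 1.56 and 8.30 CPM in MycCaP-BMP4 libraries and 8.31 and 7.93 CPM in MycCaP libraries, the granule gene Prg2 was at 0 counts in all 4 libraries and Epx had 1 count in MycCaP-BMP4 replicate 2 only. The neutrophil gene Ly6g was at 0 counts in all 4. Fibroblast and mural markers (278 and 297 CPM in MycCaP-BMP4 libraries, 163 and 420 CPM in MycCaP libraries), endothelial markers (44.7 and 30.0 CPM in MycCaP-BMP4 libraries, 50.8 and 89.8 CPM in MycCaP libraries) and neutrophil markers (50.9 and 56.3 CPM in MycCaP-BMP4 libraries, 65.4 and 65.7 CPM in MycCaP libraries) were also present.

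Beyond the members, 66 further genes of the pathway were followed, of which 63 were tested and none passed edgeR's adjusted threshold. Of the cytokines, Il4 was low but detected in every library, with 0.905 and 1.05 CPM in MycCaP-BMP4 libraries and 1.14 and 0.844 CPM in MycCaP libraries. Il13 and the decoy receptor gene Il13ra2 were not tested and stayed at or under 0.211 CPM in every library. Of the 63 tested genes, 28 were apart with MycCaP-BMP4 lower and 9 with it higher, 44.4% and 14.3% of them, beside 29.7% and 28.9% of all genes, and their median log2 fold change was -0.42. With the macrophage scaling, 3 of the 63 passed edgeR's adjusted threshold, Retnla, Chil3 and Socs5, all higher, where 7.81% of all genes were called higher.

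Other receptors that signal through Janus kinases mostly lay lower in MycCaP-BMP4 libraries. For 9 of the 14 tested the groups were apart with MycCaP-BMP4 lower, for the other 5 they overlapped, beside 29.7% of all genes apart and lower. Their median was -0.999 on the log2 scale. DESeq2 called 1 of the 14, Il2rb, which was lower, beside 3.01% of all genes called lower. Il2rb, a chain of the interleukin-2 and interleukin-15 receptors found on NK and T cells, had 2.64 and 5.66 CPM in MycCaP-BMP4 libraries and 20.7 and 19.5 CPM in MycCaP libraries (log2 fold change -2.28 ± 0.46, edgeR adjusted p = 0.139, DESeq2 adjusted p = 0.000349). Ifngr1, the ligand-binding chain of the interferon-gamma receptor, had 73.3 and 138 CPM in MycCaP-BMP4 libraries and 194 and 226 CPM in MycCaP libraries. Ifnar2, a chain of the type I interferon receptor, had 49.2 and 105 CPM in MycCaP-BMP4 libraries and 172 and 137 CPM in MycCaP libraries. Scaled on the macrophage markers, the median of these receptors was 0.29, beside 1.64 for all genes, and Ifngr1 (0.41) and Ifnar2 (0.35) turned positive while Il2rb (-0.94) did not.

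The other STAT genes went in both directions. Of 6 tested, 4 were apart with MycCaP-BMP4 lower and 1, Stat5a, with it higher, beside 29.7% and 28.9% of all genes, and their median log2 fold change was -0.72. Stat2, which acts below the type I interferon receptor, had 24.5 and 44.2 CPM in MycCaP-BMP4 libraries and 77.3 and 62.9 CPM in MycCaP libraries, a log2 fold change of -1.03 ± 0.35 (edgeR adjusted p = 0.219). Stat5a, which acts below growth hormone, prolactin and several interleukin receptors, had 39.3 and 32.6 CPM in MycCaP-BMP4 libraries and 23.5 and 24.9 CPM in MycCaP libraries, a log2 fold change of 0.57 ± 0.26. Relative to all genes, Stat6 at -0.54 lay between these 2. Scaled on the macrophage markers, the median of the list was 0.70, Stat2 stood at 0.40 and Stat5a at 2.33.

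Adaptors and phosphatases that attach to the receptor were mixed too: of 13 tested, 6 were apart with MycCaP-BMP4 lower and 3 with it higher, beside 29.7% and 28.9% of all genes, with a median of -0.35. Ptpn11, the phosphatase SHP2, had 266 and 176 CPM in MycCaP-BMP4 libraries and 122 and 131 CPM in MycCaP libraries, a log2 fold change of 0.80 ± 0.32 (edgeR adjusted p = 0.260). Ptpn6, the related phosphatase SHP1 of blood cells, had 65.6 and 182 CPM in MycCaP-BMP4 libraries and 229 and 232 CPM in MycCaP libraries, and its log2 fold change was -0.90 ± 0.51. The leukocyte kinase subunit gene Pik3cd had 37.3 and 106 CPM in MycCaP-BMP4 libraries and 164 and 144 CPM in MycCaP libraries. Scaled on the macrophage markers, the median of the list was 0.95, and Ptpn6 (0.33), Pik3cd (0.12) and Ptpn11 (2.65) were all positive.

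Genes known to respond to interleukin-4 through STAT6 in mouse macrophages did not share a direction. Of 23 tested, 8 were apart with MycCaP-BMP4 lower, 1 with it higher and 14 overlapped, beside 29.7% of all genes apart and lower and 28.9% apart and higher. The median log2 fold change was -0.33, and 0.82 when scaled on the macrophage markers. DESeq2 called 2 of the 23, Chil3 and Alox15, both higher, beside 6.83% of all genes called higher and 3.01% lower. Both were high in MycCaP-BMP4 replicate 2 only. Chil3, a chitinase-like protein gene, had 8.25 and 215 CPM in MycCaP-BMP4 libraries and 11.5 and 6.46 CPM in MycCaP libraries (log2 fold change 3.63 ± 1.38, edgeR adjusted p = 0.244, DESeq2 adjusted p = 0.00289). Alox15, a lipoxygenase gene, had 1.52 and 28.1 CPM in MycCaP-BMP4 libraries and 1.88 and 1.94 CPM in MycCaP libraries (edgeR adjusted p = 0.277, DESeq2 adjusted p = 0.0247). The chemokine genes Ccl17 and Ccl22, which recruit cells through CCR4, were low in both MycCaP-BMP4 libraries. Ccl22 had 4.27 and 9.39 CPM in MycCaP-BMP4 libraries and 13.7 and 24.7 CPM in MycCaP libraries (log2 fold change -1.49 ± 0.52, edgeR adjusted p = 0.224). Ccl17 had 0.507 and 1.23 CPM in MycCaP-BMP4 libraries and 3.72 and 2.78 CPM in MycCaP libraries. The transcription factor gene Batf3 had 3.26 and 4.74 CPM in MycCaP-BMP4 libraries and 10.8 and 8.27 CPM in MycCaP libraries. Under the macrophage scaling Ccl22 (-0.18) and Ccl17 (-0.62) stayed below 0 and Batf3 (0.27) did not. The lectin gene Clec10a split the MycCaP-BMP4 group, at 103 and 507 CPM, against 546 and 370.0 CPM in MycCaP libraries. Retnla, the 1 gene above both MycCaP libraries in both MycCaP-BMP4 libraries, had 189 and 4655 CPM in MycCaP-BMP4 libraries and 159 and 78.9 CPM in MycCaP libraries (log2 fold change 4.35 ± 1.46, edgeR adjusted p = 0.215). Its MycCaP-BMP4 replicate 1 was thus close to the MycCaP libraries and replicate 2 far above them.

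**Figure D5:**
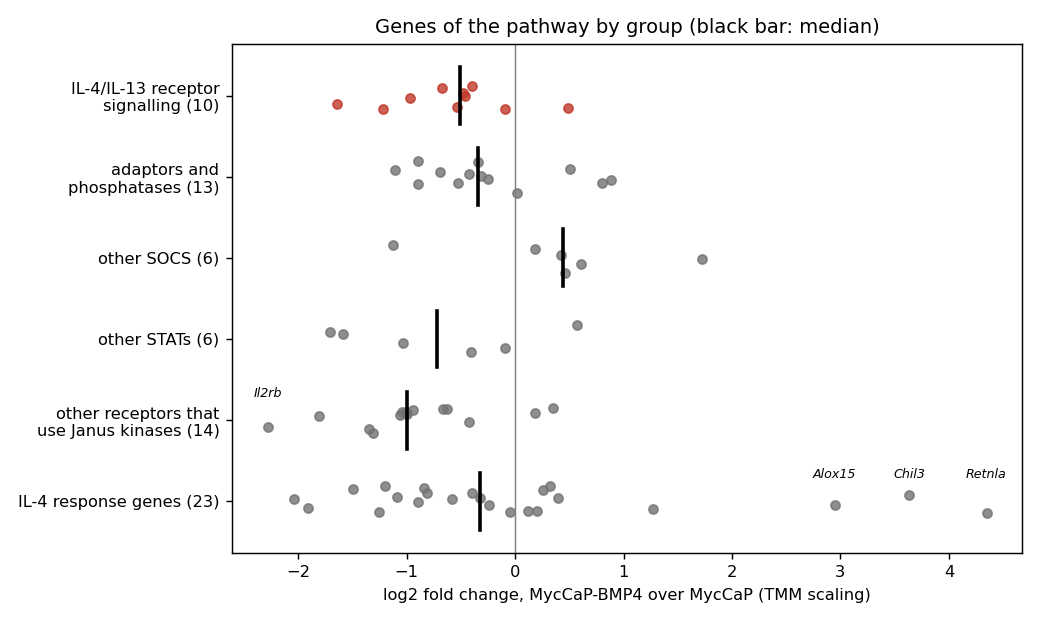
Log2 fold change, MycCaP-BMP4 over MycCaP with TMM scaling, of the 10 genes (red) and of the tested genes of 5 other groups of the pathway (grey); black bars mark group medians and 4 genes far from the others of their group are named. The members' median is -0.51, that of other receptors using Janus kinases -0.999, and that of the other SOCS genes 0.44.

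Over all 9101 other genes with a mean above 10 CPM, the profile nearest to Il4ra across the 4 libraries was that of H2-Ab1, an MHC class II gene, at a distance of 0.0466 between centred log2 levels. H2-Ab1 had 225 and 1045 CPM in MycCaP-BMP4 libraries and 1529 and 1363 CPM in MycCaP libraries, the same order of libraries as Il4ra. Rsad2 (0.105) and Hpse (0.114) came next. Nearest to Stat6 were Ccdc93 (0.0397), Evi5l (0.0429) and Cltc (0.0467), and among the nearest to Cish were Ythdc1 (0.0366) and Tomm34 (0.0390). With 4 libraries and 9101 candidates, such distances describe these libraries only.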

How the data were processed

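Polyadenylated RNA was sequenced in pairs from strand-specific libraries, per the labels' protocols. The authors deposited 1 file of whole-number read counts per library. The submitters' processing notes name HTSeq, STAR 2.6.0b, Bowtie2 2.2.3 and RSEM, with GRCm38 (mm10) as the build. Neither the annotation release nor the strand setting is given there, so genes that overlap others are uncertain. Il4ra, Il2rg, Jak3, Tyk2 and Cish share 404 to 740 exonic bases with other genes. Gm44876, which overlaps Il4ra, was not among the counted genes, and those overlapping the other 4 had 0 to 41 counts over the 4 libraries. Stat6 shares 40 exonic bases with Nab2, on the opposite strand, which had 5174 counts. Jak1 shares 4 exonic bases. Lines that name no gene (14.6% to 19.4% of reads) were left out.

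Identifiers were given symbols from a reference table (37607 of 39179). Exon lengths and loci come from GENCODE M21, promoters from RefSeq (GRCm38.p6), matched by symbol for all 10 members. Counts were filtered with filterByExpr (14075 genes), scaled with TMM and tested with edgeR 4.0.16 (quasi-likelihood, two-sided, adjusted p under 0.05, no covariate). That fit was tried on simulated counts that varied less between libraries than these do. The trial therefore does not show how many changes are missed here. The SE is the log2 fold change divided by the square root of F. CPM values use TMM factors, and values per kilobase use gene counts alone. Log2 differences between a library and the MycCaP mean add 0.5 CPM. A gene's groups do not overlap when both libraries of one lie beyond both of the other.

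The alternatives were DESeq2 1.42.0 size factors, library size alone, scaling on 15 pan-macrophage markers, no filter, a filter of 1 CPM in 2 libraries, a replicate block, DESeq2's test, limma-voom (limma 3.58.1) and each library left out. Members and lists were chosen with earlier results of these data known. Named genes are all members, up to 4 genes with the smallest p per pathway list and genes needed to read a list (here Clec10a, Chil3 and Alox15, chosen after their values were seen), defining or most counted markers, and the 3 genes nearest in profile to Il4ra, Stat6 and Cish. Some genes that this rule names are not reported here.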

Additional observations from a re-analysis of the deposited data

How the results depend on the processing

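The median log2 fold change of the members, -0.51 as reported, was 0.88 when scaled on the macrophage markers and -1.08 to -0.22 with each library left out in turn. That scaling also reversed Il2rg (0.92), Jak1 (0.94), Jak2 (1.5), Jak3 (0.15), Tyk2 (1.17), Stat6 (0.84) and Socs1 (0.76), and scaling by library size alone reversed Jak2 (0.0667). With library size alone, the groups of Jak1 and of Stat6 overlapped. The count of genes called, 0 as reported, was 65 with library size alone, 1122 with macrophage scaling, 1109 with no filter on low counts, and 1385 with DESeq2. Members called were 1, Il13ra1, with no filter and with DESeq2. With each library left out in turn, genes called ranged from 0 to 5753, members called from 0 to 6, Il2rg from -1.07 to 0.0727 and Jak2 from -0.22 to 0.0510. The members' median was -1.08 without MycCaP-BMP4 replicate 2 and -0.22 without replicate 1, beside -0.03 for all genes in each of these fits. The cause was not tested. Il13ra1, Il4ra and Cish kept their direction under all 13 alternatives run, which refit these same libraries. Under the macrophage scaling, Il4ra (-0.21 ± 0.97) and Il13ra1 (-0.45 ± 1.08) were smaller in size than their SE. There 92.2% of all genes, like Cish, were above 0.

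The replicate numbers share nothing in the labels. Log2 differences between replicates 1 and 2 correlated across genes at -0.148 between the groups. The replicate block called 2 genes and no member, and the crossed pairing, added after seeing the data, called 689 genes and no member.

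With 2 libraries a group, the 95% intervals of the members' log2 fold changes were 1.18 to 3.50 wide from end to end. Socs1, with 84 to 187 counts, was the least counted member.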

Other observations

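The SOCS genes other than Socs1 and Cish mostly lay higher in MycCaP-BMP4 libraries, none of them past edgeR's adjusted threshold with TMM scaling. For 4 of the 6 tested the groups were apart with MycCaP-BMP4 higher, and for 1 with it lower, beside 28.9% and 29.7% of all genes, and their median log2 fold change was 0.44. Socs5, a member of the family known from mouse T cells to bind the IL-4 receptor alpha chain, had 52.3 and 38.3 CPM in MycCaP-BMP4 libraries and 12.3 and 15.02 CPM in MycCaP libraries. Both MycCaP-BMP4 libraries lay above both MycCaP libraries, with a log2 fold change of 1.73 ± 0.30. It did not pass in edgeR (adjusted p = 0.122), but passed in DESeq2 (adjusted p = 0.000691) and in edgeR scaled on the macrophage markers (3.53, adjusted p = 0.0454). Of all genes, 6.83% were called higher by DESeq2 and 7.81% by edgeR under that scaling. Socs3, the inhibitor of IL-6 family receptors, had 219.7 and 635 CPM in MycCaP-BMP4 libraries and 1028 and 838 CPM in MycCaP libraries, a log2 fold change of -1.13 ± 0.58 (edgeR adjusted p = 0.344). Scaled on the macrophage markers it was 0.09. Socs4 (0.42 ± 0.24) and Socs7 (0.46 ± 0.24) also lay higher in both MycCaP-BMP4 libraries without passing.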
